A study of Mus musculus with 16 samples.

Results

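Peroxisomes are small organelles that shorten fatty acids too long or too branched for mitochondria, trim the side chain of bile acid precursors, and detoxify the hydrogen peroxide made on the way. Their matrix enzymes are made in the cytosol and carried in by peroxins, the products of the Pex genes, which also build the membrane and divide the organelle. In rodent liver the nuclear receptor PPARα, bound to agonists such as Wy14643, is known to raise many genes of peroxisomal fatty acid oxidation and to make the organelle multiply. The genes described here are 39 named genes of peroxisomal oxidation and biogenesis out of 18193 genes on the array. They were taken by name and fall into 16 oxidation enzymes, 13 peroxins and 10 other members, which are transporters, membrane proteins, catalase, a protease and enzymes of ether lipid synthesis.

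Livers came from 4 groups of 4 male mice aged 3 to 5 months. They were PPARα-null mice (knockout, strain 129S4/SvJae) given Wy14643 in their food (0.1% by weight) over 5 days, knockout mice on control food, wild-type mice (strain 129S1/SvImJ) on Wy14643, and wild-type mice on control food. The knockout lacks the receptor in the whole animal, and its substrain differs from that of the wild type, so every difference between genotypes also holds a difference between substrains, and the contributions of the 2 cannot be told apart. Each liver was run on its own 1-colour Affymetrix whole-genome mouse array, which reads each transcript with 1 or more sets of short probes. The paper's methods give 5 mice per group and its results 4 to 5, and 4 arrays per group were available here.

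The values below are log2 intensities of a gene's brightest probe set, and a difference of 1 is a change by a factor of 2. A gene is called when the adjusted p of limma, over all 45037 probe sets tested, is under 0.01 and the fold is over 1.5. The members had 76 probe sets, of which 74 named 1 member and 2 were shared by Acaa1a and Acaa1b. More than 1 own probe set was available for 23 members and exactly 1 for 16. The median log2 intensity of an array lay between 2.15 and 2.24, and 37 members had every group mean above 2.24. The exceptions were Eci3, with every group mean below that level, and Abcd2, whose group mean was above it only in wild-type mice on Wy14643.

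Arrays of 1 group correlated with each other at 0.987 to 0.995 over all probe sets, and arrays of wild-type mice on Wy14643 with those of the other groups at 0.961 to 0.971. Ppara itself still gave signal in the knockout, at 9.35, 9.47, 9.68 and 10.04 on Wy14643 and 9.15, 8.82, 9.48 and 9.71 on control food. In the wild type it read 10.80, 10.81, 10.82 and 10.70 on Wy14643 and 9.77, 9.89, 10.07 and 9.96 on control food. The knockout was lower on Wy14643 (wild type minus knockout 1.15 ± 0.17, adjusted p 5.10e-05), while on control food the difference of 0.63 ± 0.17 was not called (adjusted p 0.140). The 2 other probe sets of Ppara were called lower in the knockout on both foods, at 1.38 and 1.59 on control food, wild type minus knockout. The position of these probes with respect to the disruption is not given in the sources used here, so the signal checks the labels only in part. All 9 measured hepatocyte markers were above 2.24 in log2 mean. Their summed log2 level was 15.92 to 15.98 in knockout mice on Wy14643, 15.92 to 15.97 in knockout mice on control food, 15.62 to 15.76 in wild-type mice on Wy14643 and 15.94 to 15.97 in wild-type mice on control food. The summed level of Kupffer cell markers was 10.46 to 10.90 in knockout mice on Wy14643, 10.64 to 10.94 in knockout mice on control food, 9.53 to 9.90 in wild-type mice on Wy14643 and 10.44 to 10.65 in wild-type mice on control food. Between genotypes on Wy14643, 9 of 12 Kupffer cell markers and 5 of 10 stellate cell markers were called, all with more signal in the knockout. Of 10 endothelial markers 2 were higher in the knockout and 1 was lower, 1 of 9 hepatocyte markers was higher, and none of 4 cholangiocyte markers was called. Their part in the results below was not tested, and in whole liver fewer cells of a type and less RNA per cell cannot be told apart.

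On Wy14643, 20 of 39 members were called lower in knockout than in wild-type livers, against 8.12% of all genes, and 3 were called higher in the knockout, against 7.13% of all genes. The median difference, wild type minus knockout, was 0.73 over the members and -0.04 over all genes. Among the 16 oxidation enzymes 9 were lower in the knockout and 1 was higher, with a median of 1.66. Among the 13 peroxins 6 were lower and 1 was higher, with a median of 0.55. Of the 10 other members 5 were lower and 1 was higher, with a median of 0.69. The list therefore held both large differences and genes that moved little or the other way. The 3 calls higher in the knockout were near the share of all genes.

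The response to the agonist was read in each genotype separately. In knockout livers 2 of 39 members rose, Acaa1b and Ech1, against 0.0275% of all genes (5 genes), and no member fell, against 0% of all genes. Neither call held when only the 8 knockout arrays were fitted (limma adjusted p 0.0160 for Acaa1b and 0.0365 for Ech1). The unadjusted p was under 0.05 for 10 members that were higher and 1 that was lower on Wy14643 in the knockout, and 964 and 917 genes of all 18193 passed the same mark. In wild-type livers 21 members rose, against 7.72% of all genes, and 2 fell, against 6.74%. The median response was 0.10 in the knockout and 0.67 in the wild type. The wild-type comparisons on Wy14643 against the knockout and against control food share the same 4 arrays of treated wild-type mice. The 2 responses were set against each other in an interaction test, wild-type response minus knockout response. It called 18 members positive, against 5.38% of all genes, and 3 negative, against 4.62%.

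**Figure D1:**
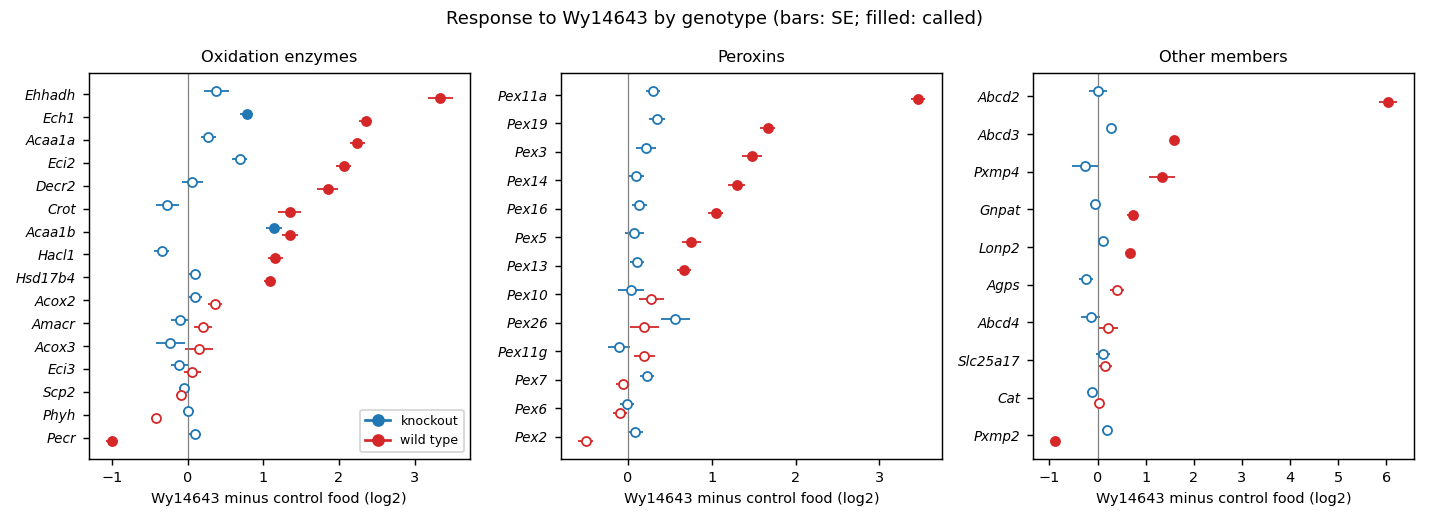
Log2 difference between Wy14643 and control food for each of the 39 members, in knockout (blue) and wild-type (red) livers, n = 4 arrays per group. Bars are standard errors and filled points are called genes: in the knockout only Acaa1b and Ech1 are filled, while 9 oxidation enzymes, 7 peroxins and 5 other members are filled above 0 in the wild type.

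The core of straight-chain β-oxidation was called in full. On Wy14643, 3 of 3 measured members were lower in knockout than in wild-type livers, against 8.12% of all genes. Ehhadh encodes the bifunctional enzyme that hydrates and then dehydrogenates the acyl-CoA chain. It read 10.25, 10.20, 10.19 and 10.02 in knockout livers on Wy14643 and 9.88, 9.70, 9.70 and 9.88 on control food. In wild-type livers it read 13.43, 14.02, 13.43 and 13.33 on Wy14643 and 10.25, 10.56, 10.29 and 9.75 on control food. Treated wild-type livers stood far apart. The other 3 groups lay between 9.70 and 10.56, where the knockout groups did not overlap each other. The difference on Wy14643, wild type minus knockout, was 3.39 ± 0.16 (SE, 10.5-fold, adjusted p 3.48e-11), whereas on control food it was 0.42 ± 0.16 and not called (adjusted p 0.429). The knockout response was 0.38 ± 0.16 (adjusted p 0.486) and the wild-type response 3.34 ± 0.16, with an interaction of 2.96 ± 0.23 (adjusted p 6.56e-08).

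The promoter of Ehhadh, from 250 bases before to 50 after the RefSeq start (GRCm38.p6, chr16:21787785-21788084, minus strand), is shown because the gene had the largest wild-type response of the oxidation enzymes. The capitals mark its CCAAT box, a common promoter element, here on the opposite strand.
Ehhadh: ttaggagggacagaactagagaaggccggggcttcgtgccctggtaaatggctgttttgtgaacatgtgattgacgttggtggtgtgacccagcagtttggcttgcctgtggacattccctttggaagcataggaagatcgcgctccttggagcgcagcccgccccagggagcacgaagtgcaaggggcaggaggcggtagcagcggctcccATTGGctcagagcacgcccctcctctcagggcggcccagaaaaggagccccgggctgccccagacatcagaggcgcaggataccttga

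Acaa1a and Acaa1b encode the 2 peroxisomal 3-ketoacyl-CoA thiolases of the mouse, which release acetyl-CoA at the end of each cycle, and their probe sets had different patterns of calls. Acaa1b read 12.23, 11.99, 12.34 and 12.32 in knockout livers on Wy14643 and 11.09, 11.23, 10.89 and 11.10 on control food. In wild-type livers it read 14.10, 14.16, 14.07 and 14.01 on Wy14643 and 12.90, 12.77, 12.80 and 12.49 on control food. No 2 of the 4 groups overlapped, and the level was higher on Wy14643 than on control food in both genotypes. Acaa1b rose by 1.14 ± 0.11 in the knockout (SE, adjusted p 2.95e-04; 0.0160 and no longer called with the knockout arrays alone) and by 1.35 ± 0.11 in the wild type (adjusted p 4.08e-08). The interaction of 0.21 ± 0.15 was not called (adjusted p 0.475, 95% interval -0.11 to 0.53). The interval still allows a wild-type response larger by up to 0.53. Treated wild-type values of Acaa1b lay near the top of the scale, as the highest intensity of those 4 arrays was 20311 to 22364 before log2. Whether the signal was compressed there was not tested. The knockout was lower on both foods, with wild type minus knockout at 1.87 ± 0.11 on Wy14643 and 1.66 ± 0.11 on control food (adjusted p 6.55e-08).

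For Acaa1a the knockout livers read 7.64, 7.77, 7.96 and 7.64 on Wy14643 and 7.43, 7.41, 7.53 and 7.55 on control food. Wild-type livers read 10.10, 9.85, 9.99 and 10.01 on Wy14643 and 7.90, 7.69, 7.79 and 7.62 on control food. Here treated wild-type livers stood far apart. Knockout livers on control food were the lowest group, without overlap but close to the remaining groups. The knockout response was 0.27 ± 0.10 (adjusted p 0.367), the wild-type response 2.24 ± 0.10, and the interaction 1.97 ± 0.14 (adjusted p 1.93e-08). On control food wild type minus knockout was 0.27 ± 0.10 (adjusted p 0.379). The probe set of Acaa1a is of a kind whose probes may bind other transcripts, so its assignment to this copy is uncertain.

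Both probe sets shared by the 2 thiolase genes were also measured. The first had a knockout response of 0.78 ± 0.11 in the knockout (adjusted p 0.0135, not called) and rose 4.59-fold in the wild type. The second rose by 0.80 ± 0.09 in the knockout (adjusted p 0.00184, called) and by 1.66 ± 0.09 in the wild type. Both gave a called interaction, 1.42 ± 0.16 and 0.86 ± 0.13, between the values of the separate copies.

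**Figure D2:**
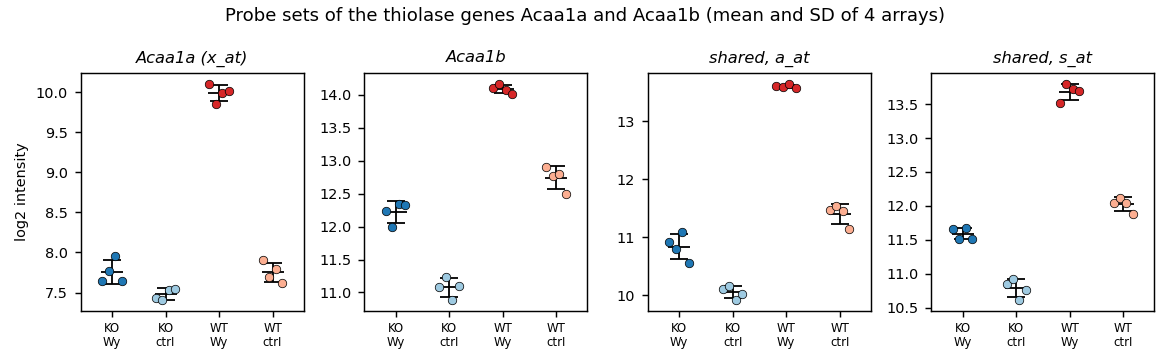
Log2 intensity of 4 probe sets of the thiolase genes on each array, by group (KO Wy, KO ctrl, WT Wy, WT ctrl), with the mean and SD of 4 arrays. Acaa1b steps up in both genotypes, Acaa1a stands far apart only in treated wild-type livers, and the 2 shared probe sets lie between these patterns.

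The promoters of the 2 thiolase copies are shown for comparison, since the copies had different patterns of calls (GRCm38.p6, Acaa1a at chr9:119341044-119341343, plus strand, and Acaa1b at chr9:119157044-119157343, minus strand). Aligned to each other they were identical at 177 of 342 positions, or 51.8%. No other pair of promoters was aligned, so this value does not show whether they are more alike than unrelated promoters. Each held 4 CCAAT boxes counted over both strands, in capitals. The stretch CCAATTGG of Acaa1b is counted on each strand. A CCAAT box was found in 37.4% of all 32851 promoters in the table and in 16 of the 38 promoters listed there for members (42.1%).
Acaa1a: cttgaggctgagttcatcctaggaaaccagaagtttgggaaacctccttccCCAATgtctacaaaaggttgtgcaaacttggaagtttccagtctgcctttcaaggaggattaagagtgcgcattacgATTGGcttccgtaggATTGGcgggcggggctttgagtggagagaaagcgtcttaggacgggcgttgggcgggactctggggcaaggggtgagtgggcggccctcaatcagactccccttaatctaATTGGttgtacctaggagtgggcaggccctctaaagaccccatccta
Acaa1b: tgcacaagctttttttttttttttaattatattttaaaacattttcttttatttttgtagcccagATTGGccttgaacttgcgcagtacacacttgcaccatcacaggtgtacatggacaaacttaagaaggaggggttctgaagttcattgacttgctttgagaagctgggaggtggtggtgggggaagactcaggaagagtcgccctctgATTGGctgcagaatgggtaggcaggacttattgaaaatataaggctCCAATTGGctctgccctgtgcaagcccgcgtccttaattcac

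Of the enzymes that handle double bonds, 3 of 5 were lower in the knockout on both foods. Of all genes, 8.12% were called lower in the knockout on Wy14643 and 0.401% on control food. Decr2, the peroxisomal 2,4-dienoyl-CoA reductase, read 6.15, 6.62, 6.12 and 6.61 in knockout livers on Wy14643 and 6.56, 6.28, 6.37 and 6.05 on control food. In wild-type livers it read 10.45, 10.60, 10.61 and 10.42 on Wy14643 and 8.97, 8.62, 8.45 and 8.63 on control food. The 2 knockout groups overlapped, and both lay below every wild-type array. Wild type minus knockout was 4.15 ± 0.14 on Wy14643 (SE, 17.7-fold, adjusted p 5.27e-13) and 2.35 ± 0.14 on control food (5.11-fold, adjusted p 3.88e-08). The knockout response was 0.06 ± 0.14 (95% interval -0.24 to 0.36) and the wild-type response 1.85 ± 0.14, with an interaction of 1.80 ± 0.20 (adjusted p 7.14e-06).

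Ech1 encodes a dienoyl-CoA isomerase found in peroxisomes and mitochondria. Its knockout values were 8.97, 8.81, 8.85 and 9.06 on Wy14643 and 8.19, 8.20, 8.01 and 8.14 on control food. Its wild-type values were 12.39, 12.33, 12.46 and 12.43 on Wy14643 and 10.20, 9.96, 10.07 and 9.98 on control food. As for Acaa1b, no 2 groups overlapped. Ech1 rose by 0.78 ± 0.09 in the knockout (adjusted p 0.00121) and by 2.35 ± 0.09 in the wild type, with a called interaction of 1.57 ± 0.12 (adjusted p 9.29e-08). The knockout was lower on control food too, wild type minus knockout being 1.91 ± 0.09 (adjusted p 1.31e-09). The call in the knockout was lost when the knockout arrays alone were fitted, and without knockout Wy14643 replicate 1 or knockout control replicate 3, with differences of 0.74 to 0.82 over the 16 refits that each left out 1 array.

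Eci2, an enoyl-CoA isomerase, read 9.24, 9.0, 9.44 and 9.38 in knockout livers on Wy14643 and 8.66, 8.45, 8.59 and 8.60 on control food. Wild-type livers gave 12.28, 12.32, 12.32 and 12.26 on Wy14643 and 10.41, 10.21, 10.20 and 10.12 on control food. Again no 2 groups overlapped, although the knockout response of 0.69 ± 0.10 just missed the call (adjusted p 0.0141) and was called without knockout Wy14643 replicate 2. Between genotypes, wild type minus knockout was 3.03 ± 0.10 on Wy14643 and 1.66 ± 0.10 on control food (adjusted p 3.61e-08). The related Eci3 was dim in every group, with differences between -0.11 and 0.29, none called.

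The fifth gene of this role went the other way. Pecr, a reductase of trans-2-enoyl-CoA, read 10.91, 10.96, 10.88 and 11.15 in knockout livers on Wy14643 and 10.90, 10.93, 10.83 and 10.83 on control food. Wild-type livers gave 10.03, 9.95, 10.08 and 9.99 on Wy14643 and averaged 11.02 ± 0.02 on control food (SD, n = 4). Treated wild-type livers were the lowest group and did not overlap the others. Pecr was therefore higher in the knockout on Wy14643 (wild type minus knockout -0.96 ± 0.08, adjusted p 5.67e-08). It fell on Wy14643 in the wild type (-1.0 ± 0.08), with a knockout response of 0.10 ± 0.08 that was not called and an interaction of -1.10 ± 0.11 (adjusted p 2.09e-06).

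**Figure D3:**
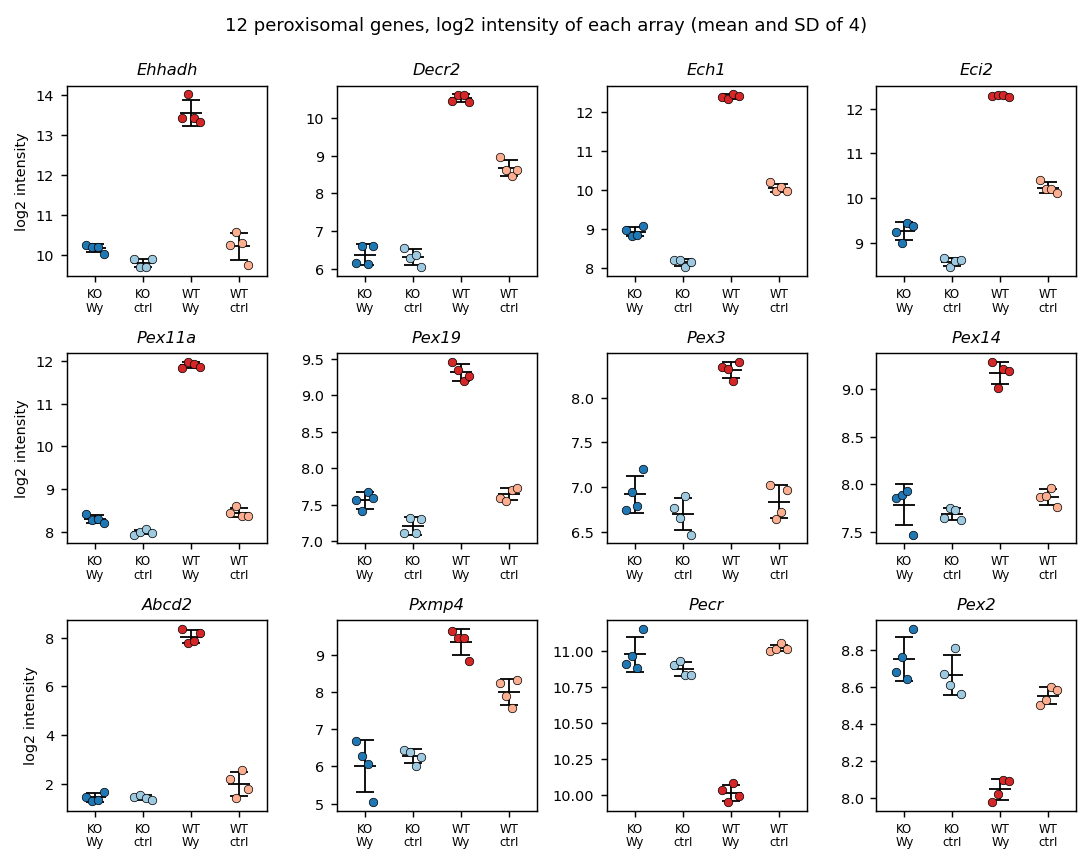
Log2 intensity of 12 members on each of the 16 arrays, by group (KO Wy, KO ctrl, WT Wy, WT ctrl), with the mean and SD of 4 arrays and a separate scale for each gene. Decr2, Ech1, Eci2 and Pxmp4 also differ between genotypes on control food, Ehhadh, Pex11a, Pex19, Pex3, Pex14 and Abcd2 stand apart mainly in treated wild-type livers, and Pecr and Pex2 are lowest there.

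Of the 5 enzymes for branched chains and bile acid side chains, only Hsd17b4 was called. Hsd17b4 encodes the D-bifunctional protein, the counterpart of the Ehhadh product for branched and bile acid substrates. Knockout livers gave 10.47, 10.44, 10.37 and 10.31 on Wy14643 and 10.41, 10.23, 10.26 and 10.26 on control food, and the 2 groups overlapped. Wild-type livers gave 12.18, 12.14, 12.27 and 12.27 on Wy14643 and 11.16, 11.13, 11.06 and 11.15 on control food, both above all knockout arrays. The knockout was lower on both foods, wild type minus knockout being 1.82 ± 0.08 on Wy14643 and 0.83 ± 0.08 on control food (adjusted p 7.71e-06), with an interaction of 0.99 ± 0.11 (adjusted p 5.74e-06). The branched-chain oxidases Acox2 and Acox3, the racemase Amacr and the thiolase and carrier Scp2 had differences of 0.32, 0.18, 0.09 and -0.06 between wild type and knockout on Wy14643, none called. For Scp2, at 12.94 ± 0.07 in knockout and 12.88 ± 0.04 in wild-type livers on Wy14643 (SD, n = 4), the 95% interval of the difference was -0.22 to 0.10.

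Both genes of α-oxidation, which removes 1 carbon from chains such as phytanic acid that cannot enter β-oxidation, were measured, and only Hacl1 was called. Hacl1, the lyase of the pathway, read 10.23, 10.18, 9.99 and 10.14 in knockout livers on Wy14643 and 10.42, 10.56, 10.55 and 10.39 on control food. In wild-type livers it read 11.93, 11.81, 11.83 and 11.69 on Wy14643 and 10.59, 10.45, 10.72 and 10.86 on control food. Treated wild-type livers were highest and treated knockout livers lowest, without overlap. Wild type minus knockout on Wy14643 was 1.68 ± 0.10 (adjusted p 7.08e-10), and the responses were -0.34 ± 0.10 in the knockout (adjusted p 0.247, not called) and 1.16 ± 0.10 in the wild type. Phyh, the hydroxylase of the first step, had an adjusted p of 1.18e-05 with wild type minus knockout at -0.56 ± 0.07, a fold of 1.47 that lay just under the threshold. Crot, which transfers shortened chains to carnitine for export to mitochondria, was lower in the knockout on Wy14643 by 1.64 ± 0.15 as wild type minus knockout (adjusted p 1.60e-07). On control food the difference of Crot was 0.03 ± 0.15, with a 95% interval of -0.28 to 0.34.

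Pex11a had the largest difference among the peroxins. Pex11a, which acts in elongation and division of peroxisomes, read 8.40, 8.28, 8.30 and 8.19 in knockout livers on Wy14643 and 7.93, 8.0, 8.06 and 7.97 on control food. Wild-type livers gave 11.84, 11.98, 11.93 and 11.86 on Wy14643 and 8.44, 8.59, 8.37 and 8.37 on control food. Treated wild-type livers lay over 3 log2 units above all the others. Between genotypes on Wy14643, wild type minus knockout was 3.61 ± 0.08 (SE, 12.2-fold, adjusted p 2.58e-15), and on control food it was 0.45 ± 0.08 with an adjusted p of 0.0101, just above the threshold, and a fold of 1.37. The responses were 0.30 ± 0.08 in the knockout (adjusted p 0.212) and 3.46 ± 0.08 in the wild type, with an interaction of 3.16 ± 0.12. Its relative Pex11g was not called in any comparison by its brightest probe set (0.45, wild type minus knockout on Wy14643), while another of its 3 probe sets was called lower on Wy14643 in the wild type, at -0.60.

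The Pex11a promoter (GRCm38.p6, chr7:79743082-79743381, minus strand) is shown because it belongs to the peroxin with the largest response. It held neither a CCAAT box nor an exact AGGTCA, the single unit of the repeat that PPARα binds, on either strand, and therefore has no capitals.
Pex11a: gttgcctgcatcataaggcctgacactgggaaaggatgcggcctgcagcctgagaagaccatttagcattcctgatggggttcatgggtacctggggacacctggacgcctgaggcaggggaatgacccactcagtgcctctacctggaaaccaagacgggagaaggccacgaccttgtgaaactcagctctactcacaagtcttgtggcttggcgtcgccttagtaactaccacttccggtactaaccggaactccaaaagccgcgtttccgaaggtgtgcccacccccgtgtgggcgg

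All 3 genes that place proteins in the peroxisomal membrane were called lower in the knockout on Wy14643, against 8.12% of all genes. Pex19, the carrier of membrane proteins, read 7.56, 7.41, 7.67 and 7.60 in knockout livers on Wy14643 and 7.11, 7.32, 7.11 and 7.31 on control food. Wild-type livers gave 9.46, 9.34, 9.19 and 9.27 on Wy14643 and 7.60, 7.55, 7.70 and 7.73 on control food. For Pex19 the treated wild-type group stood apart. Pex3, which docks the carrier at the membrane, read 6.74, 6.95, 6.79 and 7.20 in knockout livers on Wy14643 and 6.77, 6.66, 6.90 and 6.47 on control food. Pex3 in the wild type read 8.34, 8.32, 8.19 and 8.40 on Wy14643 and 7.02, 6.64, 6.72 and 6.97 on control food. The same group stood apart for Pex3. Pex16, which acts with Pex3 in membrane assembly, read 8.54, 8.71, 8.50 and 8.67 in knockout livers on Wy14643 and 8.62, 8.44, 8.41 and 8.38 on control food. In wild-type livers Pex16 averaged 9.96 ± 0.05 on Wy14643 (SD, n = 4) and read 8.88, 9.01, 9.02 and 8.74 on control food. The wild-type arrays of Pex16 lay above every knockout array also on control food. Wild type minus knockout on Wy14643 was 1.75 ± 0.09 for Pex19 (adjusted p 1.50e-10), 1.39 ± 0.12 for Pex3 (adjusted p 1.22e-07) and 1.36 ± 0.09 for Pex16 (adjusted p 3.43e-09).

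By brightest probe set, Pex14 and Pex5 of the 4 docking and import receptor genes were called between genotypes on Wy14643. Pex13 and Pex7 were not. Pex14, a docking factor for import receptors, read 7.85, 7.89, 7.93 and 7.47 in knockout livers on Wy14643 and 7.64, 7.75, 7.73 and 7.62 on control food. Wild-type livers gave 9.28, 9.01, 9.21 and 9.19 on Wy14643 and 7.86, 7.88, 7.96 and 7.76 on control food. The treated wild-type group alone stood apart, with wild type minus knockout at 1.38 ± 0.10 (adjusted p 1.43e-08). The other docking factor, Pex13, rose in the wild type (0.67 ± 0.08, adjusted p 9.06e-06). Its genotype difference of 0.55 ± 0.08 had a fold of 1.46, under the threshold. A dimmer probe set of Pex13 was called between genotypes on Wy14643, at 0.96 ± 0.15 (1.94-fold, limma adjusted p 9.65e-05). Pex5, the receptor for most matrix enzymes, was lower in the knockout on Wy14643 (wild type minus knockout 0.73 ± 0.11, adjusted p 5.59e-05). The interaction of Pex5, 0.68 ± 0.15, lost its call in 9 of 16 refits without 1 array, with values of 0.60 to 0.74. Pex7, the receptor of a smaller group that includes the thiolases, had a difference of -0.11 and was not called (95% interval -0.27 to 0.06).

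Of the 4 genes that ubiquitinate or recycle import receptors, Pex2 was the only one called between genotypes on Wy14643. Pex2, a ubiquitin ligase subunit, read 8.68, 8.76, 8.64 and 8.91 in knockout livers on Wy14643 and 8.67, 8.61, 8.81 and 8.56 on control food. Wild-type livers gave 7.98, 8.02, 8.10 and 8.09 on Wy14643 and 8.50, 8.53, 8.60 and 8.58 on control food. The treated wild-type group was the lowest, without overlap, and Pex2 was higher in the knockout (wild type minus knockout -0.70 ± 0.09, adjusted p 6.76e-06). Its wild-type response of -0.50 ± 0.09 had a fold of 1.42, under the threshold, and its call between genotypes was lost when the mean of its probe sets was used. The partner ligase Pex10 had a difference of 0.40 ± 0.15 (adjusted p 0.0688), the recycling ATPase Pex6 one of -0.02 ± 0.08 and its membrane anchor Pex26 one of -0.22 ± 0.17, none called. A dimmer probe set of Pex6 was called lower on Wy14643 in the wild type, at -0.66. Thus 0 of 2 recycling genes, against 3 of 3 membrane assembly genes, were called between genotypes on Wy14643. Of all genes, 8.12% were called lower and 7.13% higher in the knockout there, so 0 of 2 is near that share. These counts are too small for more than a description.

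Among the transporters, Abcd2 had the largest difference of all members. Abcd2, which brings very-long-chain acyl-CoA into peroxisomes, read 1.48, 1.30, 1.34 and 1.70 in knockout livers on Wy14643 and 1.46, 1.56, 1.43 and 1.34 on control food, all below the highest array median of 2.24. Wild-type livers gave 8.35, 7.77, 7.85 and 8.20 on Wy14643 and 2.23, 1.45, 2.57 and 1.81 on control food. Only treated wild-type livers were clearly above that level. Set against 2.24 in place of the dim values, Abcd2 was at least 56.0-fold lower in treated knockout than in treated wild-type livers (fitted wild type minus knockout 6.59 ± 0.19, adjusted p 5.40e-14). Of its 4 probe sets 3 were called there. The dimmer called ones gave at least 26.1-fold and at least 1.68-fold, and the uncalled one differed by 0.32 ± 0.13 (limma adjusted p 0.0817).

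Abcd3, the most abundant transporter of the family in rodent liver peroxisomes, read 11.28, 11.30, 11.26 and 11.21 in knockout livers on Wy14643 and 11.11, 10.95, 10.89 and 10.97 on control food. Wild-type livers averaged 13.01 ± 0.01 on Wy14643 (SD, n = 4) and gave 11.43, 11.46, 11.50 and 11.28 on control food. Treated wild-type arrays stood apart from the other 3 groups. Wild type minus knockout was 1.75 ± 0.08 on Wy14643 (adjusted p 1.57e-11), and on control food 0.44 ± 0.08 with an adjusted p of 0.00927 but a fold of only 1.35. Abcd4, a relative now placed in lysosomal cobalamin transport, was dim and not called (0.41 ± 0.20), and the cofactor carrier Slc25a17 differed by 0.21 ± 0.15, not called.

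The 2 small membrane proteins Pxmp4 and Pxmp2 moved in opposite directions. Pxmp4, a membrane protein whose function is little known, read 6.67, 6.29, 6.06 and 5.05 in knockout livers on Wy14643 and 6.43, 6.38, 6.01 and 6.26 on control food. Wild-type livers gave 9.63, 9.44, 9.45 and 8.84 on Wy14643 and 8.24, 7.89, 7.56 and 8.32 on control food. It was lower in the knockout on both foods, with wild type minus knockout at 3.32 ± 0.27 on Wy14643 and 1.73 ± 0.27 on control food (adjusted p 0.00241). One array, knockout Wy14643 replicate 4, was low for Pxmp4 and also gave the highest array median. The call of Pxmp4 on control food was lost without any one of wild-type control replicates 1 and 4 and knockout control replicates 3 and 4, with differences of 1.63 to 1.88 over the refits. Its interaction, 1.59 ± 0.38 (adjusted p 0.00910), lost its call in 12 of 16 refits. Pxmp2, a channel of the peroxisomal membrane, read 10.14, 10.27, 10.09 and 10.25 in knockout livers on Wy14643 and 10.04, 10.08, 9.98 and 9.88 on control food. In the wild type Pxmp2 read 9.22, 9.13, 9.09 and 9.0 on Wy14643 and 10.04, 10.17, 9.94 and 9.82 on control food. It was higher in the knockout on Wy14643, wild type minus knockout being -1.08 ± 0.09 (adjusted p 8.11e-08), and fell on Wy14643 in the wild type (-0.89 ± 0.09).

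The remaining members include the enzyme best known as a marker of peroxisomes. Cat, catalase, which breaks down hydrogen peroxide, averaged 12.76 ± 0.07 in knockout and 12.82 ± 0.11 in wild-type livers on Wy14643 (SD, n = 4 each). Its difference of 0.06 ± 0.09 was not called, and the 95% interval of -0.13 to 0.24 leaves out a 1.5-fold change. The wild-type response of Cat was 0.04 ± 0.09 (95% interval -0.15 to 0.22), beside 3.34 for Ehhadh in the same livers. Lonp2, a protease of the matrix, was lower in the knockout on Wy14643 (0.85 ± 0.10 as wild type minus knockout, adjusted p 7.86e-06). Only 1 of the 4 probe sets of Lonp2 was called there, with differences of 0.07 to 0.85. Of the 2 enzymes that begin ether lipid synthesis, Gnpat was lower in the knockout (0.87 ± 0.11, adjusted p 9.31e-06). The other, Agps, was dim, with a difference of 0.52 ± 0.14 that passed the p threshold (adjusted p 0.00882) but not the fold.

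On control food, 6 of 39 members were called lower in the knockout, against 0.401% of all genes, and 0 were called higher, against 0.143%. The 6 were Decr2, Ech1, Eci2, Acaa1b, Hsd17b4 and Pxmp4, so 5 were oxidation enzymes (of 16), 1 was among the other members (of 10) and none was a peroxin (of 13). With an unadjusted p under 0.05, 4 of 13 peroxins were lower in the knockout and 0 were higher, while 902 and 845 of all 18193 genes passed the same mark. At an adjusted p under 0.05 without a fold threshold Pex11a, Pex16 and Pex19 were included. The median difference was 0.16 for oxidation enzymes and 0.15 for peroxins, beside 0.0 for all genes. The roles thus had like medians on control food, and differed in how far their highest members went, 2.35 for oxidation enzymes and 0.45 for peroxins. Whether the roles differ was not tested.

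**Figure D4:**
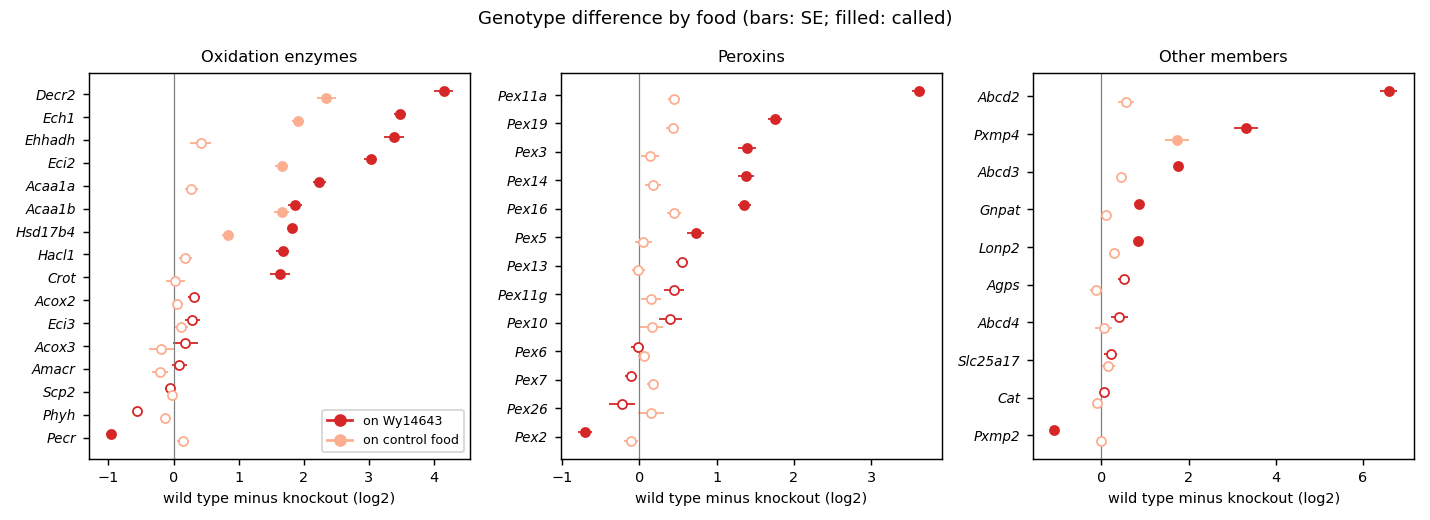
Log2 difference of wild type minus knockout for each of the 39 members, on Wy14643 (dark) and on control food (light), n = 4 arrays per group. Bars are standard errors and filled points are called genes: on control food 5 oxidation enzymes, 1 other member and no peroxin are filled.

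Peroxisomal genes outside these 39 were counted in the same way from a list of 50, of which 41 were measured. On Wy14643, 23 were lower in the knockout, against 8.12% of all genes, and 9 were higher, against 7.13%, with a median of wild type minus knockout of 0.75. On control food 4 were lower in the knockout, against 0.401% of all genes, and 0 were higher, against 0.143%. In the knockout response 0 were called, where 0.0275% of all genes rose and 0% fell. The acyl-CoA thioesterase Acot8 and the carnitine acetyltransferase Crat were lower in the knockout on Wy14643, with wild type minus knockout at 3.48 ± 0.18 and 4.43 ± 0.13. Agxt, which detoxifies glyoxylate, and Uox, which degrades urate, were higher in the knockout, at -1.59 ± 0.12 and -0.89 ± 0.09. These 4 genes were chosen after their values were seen. Higher signal in the knockout was thus not limited to Pecr, Pex2 and Pxmp2 among peroxisomal genes.

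PPARα is known to bind direct repeats of AGGTCA with 1 base between them, so the promoters of the members were searched for AGGTCANAGGTCA on both strands, with at most 2 mismatches in its 12 fixed bases. For 32 of the 39 members 38 promoters were listed, since some genes have several starts. A match was found in 1268 of all 32851 promoters (3.86%) and in 2 of the 38 promoters of members (5.26%), those of Cat and Acox2, neither of which was called between genotypes. An exact AGGTCA on either strand, which overlaps that motif, was found in 16.3% of all promoters and in 4 promoters of members (10.5%), those of Cat, Pex11g, Phyh and Scp2. The 2 matches are shown with 20 bases on each side and the repeat in capitals. That of Cat lies 204 bases before the start (GRCm38.p6, chr2:103485325-103485377, minus strand) and that of Acox2 lies 9 bases after it (chr14:8258798-8258850, minus strand). A match describes letters in this window only, and sites farther away were not searched.
Cat: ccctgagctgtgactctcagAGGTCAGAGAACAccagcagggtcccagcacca
Acox2: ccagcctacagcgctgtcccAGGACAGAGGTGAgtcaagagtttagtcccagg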

How the data were processed

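RNA of 16 livers was hybridized to Affymetrix whole-genome mouse arrays, each mouse on an array of its own. The authors deposited linear intensity values (scale inferred from their range), and the submitters' processing notes name GCRMA 2.20, which corrects background by probe sequence, quantile-normalizes and summarizes probes. A log2 without offset was taken here. Quantile normalization hides a shift shared by most genes, and the background correction bears most on dim values. Labels and paper differ on the labelling protocol. The number of arrays limits precision.

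After leaving out 64 control probe sets of 45101, limma 3.58.1 in R 4.3.3 fitted a mean for each group across the 16 arrays, with empirical Bayes moderation, two-sided tests and Benjamini-Hochberg adjustment. The fit was tested on simulated data. The annotation named a single gene for 34945 probe sets, more than 1 for 932, and no gene for 9160. A gene was represented by its brightest single-gene probe set.

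The members, lists and tests were chosen with earlier results of these data known. Array values are given for the called members with the largest differences in each role (8 oxidation enzymes, 5 peroxins, 4 others). They are also given for members called in the knockout response or on control food, and for Ppara. Members called lower in treated wild-type than in treated knockout livers have theirs as well. Promoters are those of RefSeq (GRCm38.p6), searched with Python 3.11.15 and aligned with Biopython 1.88. Alternatives were low-value filters, an offset of 16, other scaling, array weights, trended moderation, only the groups compared, a replicate block, other thresholds, the mean of probe sets, and leaving out each array.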

Additional observations from a re-analysis of the deposited data

Results flagged for a closer look

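In 2 of 80 groups of 4 arrays tested, 1 array of a named member lay far from the others, where chance alone marks about 1 in 20. Ehhadh read 14.02 in wild-type Wy14643 replicate 2, with the nearest of the other arrays at 13.43. Pex14 read 7.47 in knockout Wy14643 replicate 4, with the nearest at 7.85. The same array was the lowest of its group for Pxmp4 (5.05) and had the highest array median (2.24). Whether it differs over the members as a whole was not tested.

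The interaction test called 18 of the 19 named members, beside 5.38% of all genes with a positive and 4.62% with a negative call. Most of the 19 were named for a large or called difference between genotypes on Wy14643, which shares its 8 arrays with the interaction, so the count of 18 follows largely from that choice and supports nothing. Wild-type response minus knockout response was positive for the oxidation enzymes Ehhadh (2.96), Acaa1a (1.97), Decr2 (1.80), Ech1 (1.57), Hacl1 (1.5), Eci2 (1.37) and Hsd17b4 (0.99). It was positive for the peroxins Pex11a (3.16), Pex19 (1.32), Pex3 (1.26), Pex14 (1.20) and Pex16 (0.91), and for the membrane proteins Abcd2 (6.02), Pxmp4 (1.59) and Abcd3 (1.31). It was negative for Pecr (-1.10), Pxmp2 (-1.08) and Pex2 (-0.59). Acaa1b was the named member without a called interaction.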

How the results depend on the processing

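The alternatives were read for the 63 differences already called in the 19 named members. Of 1740 values, 1697 kept direction and call, 43 kept direction but lost the call, and 0 changed direction. Most of these members were named for a large or called difference, so the counts follow partly from that choice. Members that were not named are not in them. The 2 members called in the knockout response became 0 when only the arrays of the groups compared were fitted (Acaa1b adjusted p 0.0160, Ech1 0.0365), 1 at a fold over 2, and 1 to 3 when arrays were left out in turn. Eci2 joined them, making 3, under both low-value filters, the offset, trended moderation, the looser threshold, the mean of probe sets and without knockout Wy14643 replicate 2. The 6 calls on control food became 10 at an adjusted p under 0.05 without a fold threshold, which added Pex11a, Pex16, Pex19 and Abcd3. The 7 peroxins with a called interaction became 4 at a fold over 2, without Pex2, Pex5 and Pex16. In the interaction the call of Pex2 was lost in 7 of 16 refits without 1 array (-0.64 to -0.53), that of Pex5 in 9 (0.60 to 0.74) and that of Pxmp4 in 12 (1.26 to 1.80). With a replicate block the counts were 23 members between genotypes on Wy14643, 23 in the wild-type response, 2 in the knockout response, 6 on control food and 20 in the interaction, where Pex5 lost its call. In their deviations from group means, same-numbered arrays correlated at -0.12 to 0.19, and 6 of 16 correlated best with their own number. Such values show no clear pairing by replicate number but cannot exclude a weak one. Probe sets near the array median, such as those of Eci3, limit what can be read from dim genes.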
